A study of Homo sapiens with 33 samples.

Results

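Glycolysis splits glucose into pyruvate in a chain of cytosolic enzyme steps, and lactate dehydrogenase then turns pyruvate into lactate. Followed here were 10 enzymes of that chain: HK2, GPI, PFKP, ALDOA, TPI1, GAPDH, PGK1, ENO1, PKM and LDHA. They were chosen by name, with earlier results of these data known. Every probe set that the platform annotation gives to one of them alone was taken, with the Affymetrix control probe sets left out. This gave 28 probe sets of 10 genes, out of 54613 probe sets that are not controls and 19775 genes with a probe set of a single symbol.

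The cells were Karpas422, an established line from human diffuse large B cell lymphoma, described as mutant in EZH2. EZH2 is the catalytic subunit of PRC2, the complex that places the methyl mark of silenced genes on histone H3. EED226 is a small molecule that binds EED, another PRC2 subunit, and inhibits the complex allosterically. Expression was measured on 33 Affymetrix arrays in 11 groups of 3: cells given 5 µM EED226 and cells given its solvent DMSO, each for 8 h or for 1, 2, 3 or 6 days, and cells at 0 h, whose treatment the labels do not give. All groups are one cell line, so the replicates are cultures of the same cells. Elsewhere the labels mention an EZH2 inhibitor and a compound EI1, but each treated sample's title names EED226, and the titles set the groups.

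Hexokinase, phosphofructokinase and pyruvate kinase catalyse the steps of the chain that are practically irreversible in cells. Dividing lymphoma cells commonly use glucose at a high rate and release lactate, and MYC and HIF1A are transcription factors known to act on promoters of many of these enzymes. Both recognise short DNA elements that can share the letters ACGTG. One is the E-box CACGTG, bound by MYC with MAX and by USF1. The other is the hypoxia response element, whose core can be ACGTG but also takes other forms.

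The 250 bases before the start sites of the genes were read from the RefSeq promoter table of the human assembly GRCh38.p14. It held 18 windows for the 10 genes. Searched on both strands, CACGTG occurred in 4 of the 18 windows, belonging to HK2, ALDOA, GAPDH and LDHA, and in 6.34% of all 35116 windows of that length. The shorter ACGTG, which each CACGTG contains, occurred in 11 of the 18 windows, of 8 genes, and in 18.5% of all windows. The windows of ENO1 and PKM had no ACGTG, and other forms of the hypoxia core were not searched for. The 4 windows with CACGTG are printed here, and that of GPI, the gene with the largest fall, for comparison, each 5′ to 3′ on the plus strand with every ACGTG of either strand in capitals. They lie at chr2:74834920-74835169 (HK2), chr16:30064247-30064496 (ALDOA), chr12:6535014-6535263 (GAPDH), chr11:18394313-18394562 (LDHA) and chr19:34364742-34364991 (GPI).
HK2: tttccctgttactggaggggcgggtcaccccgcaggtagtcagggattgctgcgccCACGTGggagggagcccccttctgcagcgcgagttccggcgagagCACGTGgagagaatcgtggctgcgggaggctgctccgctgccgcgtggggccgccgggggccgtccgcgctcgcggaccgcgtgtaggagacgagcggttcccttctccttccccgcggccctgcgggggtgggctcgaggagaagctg
ALDOA: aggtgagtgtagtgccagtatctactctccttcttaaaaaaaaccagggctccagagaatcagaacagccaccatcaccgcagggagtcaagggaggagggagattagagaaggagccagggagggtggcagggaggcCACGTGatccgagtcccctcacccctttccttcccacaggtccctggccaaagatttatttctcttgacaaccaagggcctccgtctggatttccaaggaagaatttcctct
GAPDH: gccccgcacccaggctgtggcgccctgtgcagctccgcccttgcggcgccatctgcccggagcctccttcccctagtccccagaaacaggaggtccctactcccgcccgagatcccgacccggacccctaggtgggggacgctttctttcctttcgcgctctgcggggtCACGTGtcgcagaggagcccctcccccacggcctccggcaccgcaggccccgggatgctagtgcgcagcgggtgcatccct
LDHA: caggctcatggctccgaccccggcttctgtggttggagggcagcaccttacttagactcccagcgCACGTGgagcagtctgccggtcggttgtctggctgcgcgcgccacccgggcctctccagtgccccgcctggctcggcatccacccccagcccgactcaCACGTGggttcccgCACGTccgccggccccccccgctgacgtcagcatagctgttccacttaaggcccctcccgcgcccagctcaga
GPI: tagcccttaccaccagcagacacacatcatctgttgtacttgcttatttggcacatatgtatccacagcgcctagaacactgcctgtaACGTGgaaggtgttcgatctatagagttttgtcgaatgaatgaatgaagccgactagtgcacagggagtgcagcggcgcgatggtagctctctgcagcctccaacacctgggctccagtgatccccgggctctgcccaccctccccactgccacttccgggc

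HK2 and LDHA each had 2 CACGTG in the window printed, ALDOA and GAPDH had 1, and GPI had ACGTG once without the flanking C. These matches describe letters and not bound sites, and their part in the falls was not tested. In the values at day 6 the genes with CACGTG lay between HK2, at 74.5% of the DMSO level, and LDHA, at 53.9%, and the 6 without it lay between PGK1, at 79.5%, and GPI, at 24%, so that the ranges overlap.

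All levels are log2 values that RMA gave for a probe set, and a gene is represented by its brightest probe set, the one with the highest mean over all arrays. A difference is EED226 minus DMSO at the same time from a limma fit over all 33 arrays, with its SE (n = 3 arrays a group), and it passed the test where the Benjamini-Hochberg adjusted p over all probe sets was under 0.05. The replicate arrays correlated at r = 0.994 or above, except DMSO day 6 replicate 3, whose r to the other arrays of its group was 0.986 and 0.987 and whose 75th percentile was 6.10, against 6.47 to 6.73 on the other arrays. B cell markers averaged between 9.92 and 10.8 on every array, and none of the 5 measured was dim. Myeloid markers averaged 3.34 to 3.82, T and NK cell markers 4.25 to 4.76 and fibroblast and epithelial markers 5.22 to 5.71, although the T cell gene CD3D and the fibroblast gene DCN read high in all groups, with group means of at least 8.09 and 12.48.

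No glycolytic enzyme passed the test between EED226 and DMSO at 8 h or at day 1, 2 fell at day 2, 7 fell at day 3 and all 10 fell at day 6, and none rose at any time. At 8 h, 0% of all genes passed as lower and 0% as higher, and at day 1 the shares were 0.0101% and 0.496%. At an unadjusted p under 0.05, 0 members passed in limma at either time, where 1.87% of all genes did at 8 h and 6.63% at day 1. At day 2, HK2 and PFKP fell, where 1.47% of all genes were lower and 5.72% higher. Same-numbered EED226 and DMSO arrays deviated together up to day 2, and with the replicate number as a block PFKP alone passed, with an adjusted p of 0.054 for HK2. At day 3, 9.59% of all genes were lower and 10.6% higher, and the 3 members that did not pass were ALDOA, TPI1 and PGK1. At day 6, 25.5% of all genes were lower and 23.1% higher, and all 10 members were among the lower genes. These shares are over genes of every level, whereas the members averaged 7.40 to 13.6, above the array medians of 4.06 to 4.18. No share was taken among genes of like level, and the members were chosen with earlier results of these data known. Counted as probe sets, 14 of 28 fell at day 3 and 24 of 28 at day 6, where 7.13% and 20.6% of all probe sets fell. A fall here is relative to the other transcripts on the array, and less RNA of a gene per cell cannot be told apart from fewer cells that hold it.

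The median difference of the 10 genes was -0.01 and 0.00 log2 units at 8 h and day 1, -0.11 at day 2, -0.23 at day 3 and -0.84 at day 6. Over all genes the medians were 0.00, -0.01, -0.03, -0.02 and -0.11 at these times. All 3 EED226 values lay below all 3 DMSO values for 8 of the 10 genes at day 2 and for 10 of 10 at days 3 and 6. That held for 15.7% of all genes at day 2, 19.1% at day 3 and 28% at day 6. Each of the 10 also passed the F test over the 5 times, as 38.1% of all genes did.

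**Figure D1:**
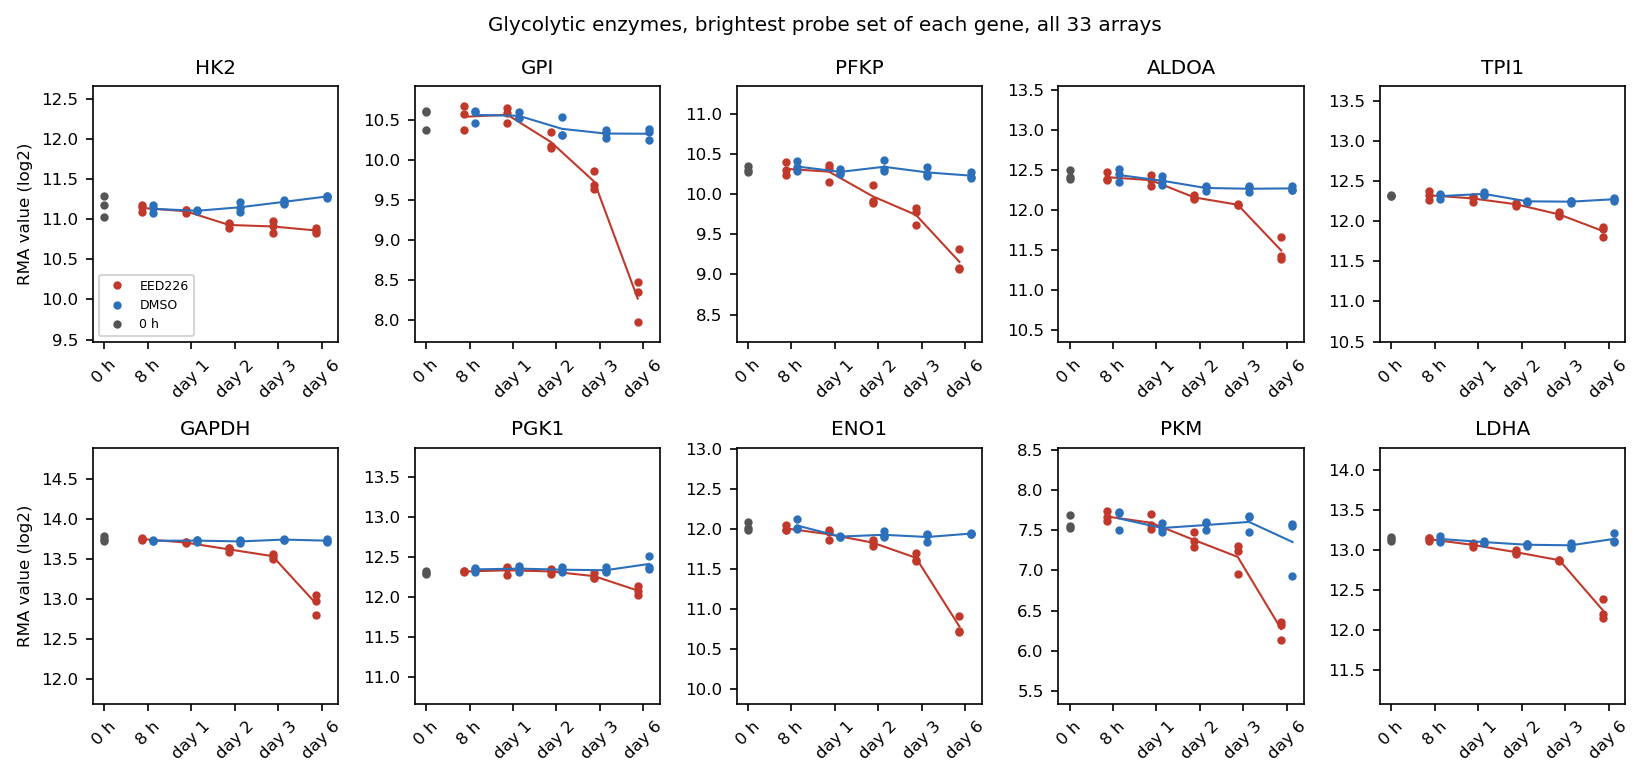
RMA values (log2) of the brightest probe set of each enzyme on all 33 arrays, at times in order and not to scale, with EED226 in red, DMSO in blue and 0 h in grey. Points are arrays, lines join group means, and every panel spans the same number of log2 units; the EED226 arrays lie below the DMSO arrays in all 10 panels at day 6.

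HK2, hexokinase 2, phosphorylates glucose as it enters the chain and is an isozyme that many tumour cells express. Its values were 10.94, 10.89 and 10.96 in EED226 cells at day 2, against 11.21, 11.15 and 11.10 in DMSO cells. At day 6 they were 10.85, 10.83 and 10.90 with EED226 and 11.30, 11.27 and 11.29 with DMSO. The groups did not overlap from day 2 on, and HK2 was the enzyme whose difference changed least from day 3 to day 6. The difference was -0.22 ± 0.06 log2 units at day 2 (SE, adjusted p = 0.0463), -0.31 ± 0.06 at day 3 (adjusted p = 0.00111) and -0.43 ± 0.06 at day 6 (adjusted p = 3.76e-06). The change of the difference from day 3 to day 6 was -0.12 ± 0.09 (adjusted p = 0.422) and did not pass. Its other probe sets, 239410_at and 222305_at, differed by -0.25 ± 0.09 and -0.15 ± 0.14 at day 6, and the second did not pass (adjusted p = 0.407). As the mean of its 3 probe sets HK2 did not pass at day 3 (adjusted p = 0.127). The call at day 2 was lost without any one of the 6 arrays of that day, with adjusted p between 0.0628 and 0.209.

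GPI, glucose-6-phosphate isomerase, makes fructose-6-phosphate and had the largest fall of the 10. With EED226 its group means were 10.54, 10.57, 10.23, 9.73 and 8.27 at 8 h and at days 1, 2, 3 and 6. In the 0 h and DMSO groups the means lay between 10.33 and 10.56. The 3 arrays at day 6 read 7.97, 8.36 and 8.49 with EED226, against 10.35, 10.39 and 10.25 with DMSO. Every EED226 array was thus far below every DMSO array. GPI differed by -0.60 ± 0.11 at day 3 (adjusted p = 0.000167) and by -2.06 ± 0.11 at day 6 (adjusted p = 4.53e-15), which left 65.9% and 24% of the DMSO level on the linear scale. At day 2 the arrays overlapped, with 10.15, 10.36 and 10.18 for EED226 and 10.32, 10.54 and 10.31 for DMSO, and the difference of -0.16 ± 0.11 did not pass (adjusted p = 0.546). GPI is measured by 1 probe set here, so no other probe set could be set beside it.

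PFKP, the platelet-type phosphofructokinase, catalyses the committed step of the chain and had the largest difference of the 10 at day 2. At day 2 it read 10.12, 9.92 and 9.89 with EED226 and 10.43, 10.31 and 10.29 with DMSO, and at day 3 9.62, 9.83 and 9.78 with EED226 and 10.34, 10.26 and 10.22 with DMSO. By day 6 the values were 9.07, 9.08 and 9.32 with EED226, against 10.22, 10.28 and 10.20 with DMSO. The 2 treatments were apart at each of these times, and the DMSO values kept to a narrow band. PFKP differed by -0.37 ± 0.08 at day 2 (adjusted p = 0.00514), by -0.53 ± 0.08 at day 3 (adjusted p = 2.19e-05) and by -1.08 ± 0.08 at day 6 (adjusted p = 8.66e-12), which left 47.4% of the DMSO level. Its call at day 2 was lost where the 6 arrays of that day were fitted alone (adjusted p = 0.0679) and for the mean of its probe sets (adjusted p = 0.122). The second probe set, 240202_x_at, was dim, with a mean of 2.54, and differed by -0.20 ± 0.11 at day 6 without passing (adjusted p = 0.168).

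ALDOA, aldolase A, cleaves the doubly phosphorylated fructose into a pair of triose phosphates. It read 11.43, 11.39 and 11.67 with EED226 at day 6, against 12.25, 12.25 and 12.31 with DMSO, and the groups did not overlap. The difference was -0.77 ± 0.07 (adjusted p = 3.14e-10), which left 58.5% of the DMSO level. Its other probe sets gave -0.80 ± 0.07 (214687_x_at) and -1.17 ± 0.10 (238996_x_at), and both passed. At day 3 the difference was -0.20 ± 0.07 (adjusted p = 0.0556) and did not pass, although all 3 EED226 arrays, at 12.06, 12.06 and 12.08, lay below the DMSO arrays, at 12.28, 12.30 and 12.22.

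TPI1, triosephosphate isomerase, interconverts these trioses. At day 6 its values were 11.80, 11.91 and 11.92 with EED226 and 12.28, 12.25 and 12.30 with DMSO. It fell by 0.40 ± 0.06 (adjusted p = 1.03e-06), to 75.9% of the DMSO level, and its other probe sets gave -0.46 ± 0.06 (200822_x_at) and -0.39 ± 0.09 (210050_at). The differences of the 3 probe sets lay close to each other. At day 3 the difference was -0.16 ± 0.06 (adjusted p = 0.0539).

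GAPDH, which oxidises glyceraldehyde-3-phosphate and yields NADH, is widely used as a reference transcript. With EED226 its means were 13.75, 13.70, 13.62, 13.53 and 12.94 at 8 h and days 1, 2, 3 and 6. The 0 h and DMSO means stayed between 13.72 and 13.75. At day 6 the arrays read 12.80, 12.98 and 13.05 with EED226, against 13.75, 13.71 and 13.72 with DMSO, so the level was near constant in vehicle culture and lower on every treated array. GAPDH differed by -0.21 ± 0.06 at day 3 (adjusted p = 0.0161) and by -0.78 ± 0.06 at day 6 (adjusted p = 8.90e-12), which left 58% of the DMSO level. The other probe sets, 217398_x_at and 213453_x_at, gave -0.89 ± 0.06 and -0.93 ± 0.06. The highest value in the deposited table was 14.01, so GAPDH read near the top of its range. Without EED226 day 3 replicate 3 the call at day 3 was lost (adjusted p = 0.0736).

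PGK1, phosphoglycerate kinase, makes the first ATP of the chain and had the smallest fall by its brightest probe set, 200738_s_at. That probe set read 12.08, 12.02 and 12.14 with EED226 at day 6, against 12.37, 12.36 and 12.51 with DMSO. The difference of -0.33 ± 0.06 passed (adjusted p = 3.81e-05), and it was the one call at day 6 that was lost where the 6 arrays of that day were fitted alone (adjusted p = 0.0533). Of its 5 other probe sets 4 fell further: -0.69 ± 0.07 (217356_s_at), -0.78 ± 0.07 (200737_at), -0.90 ± 0.09 (227068_at) and -0.47 ± 0.15 (217383_at), all of which passed. The sixth, 1558365_at, was dim and gave -0.20 ± 0.11 (adjusted p = 0.135). At day 3 the brightest probe set differed by -0.07 ± 0.06 (adjusted p = 0.525), whereas the mean of the 6 differed by -0.20 and passed (adjusted p = 0.0155). The size of the PGK1 difference at day 6 therefore depended on the probe set, from -0.33 to -0.90 log2 units among those that passed.

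ENO1, enolase 1, forms phosphoenolpyruvate. Its values at day 3 were 11.60, 11.70 and 11.61 with EED226 and 11.93, 11.94 and 11.83 with DMSO. At day 6 they were 10.71, 10.72 and 10.91 with EED226 and 11.94, 11.94 and 11.95 with DMSO. Little spread was seen among the DMSO arrays, and ENO1 had the largest fall after GPI with all arrays, while PKM fell further than ENO1 without DMSO day 6 replicate 3. The difference was -0.26 ± 0.07 at day 3 (adjusted p = 0.00562) and -1.16 ± 0.07 at day 6 (adjusted p = 2.02e-14), which left 44.8% of the DMSO level. Probe set 217294_s_at gave -1.61 ± 0.12 and 216554_s_at gave -0.99 ± 0.08 at day 6. The dim 240258_at gave -0.40 ± 0.17 and did not pass (adjusted p = 0.0612).

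PKM, the pyruvate kinase of most tissues and tumours, makes pyruvate and ATP. With EED226 at day 6 it read 6.32, 6.35 and 6.13. With DMSO at that time it read 7.58, 7.56 and 6.93, and the low value of replicate 3 came from the array that stood apart from its group. The difference was -1.09 ± 0.12 with all arrays (adjusted p = 2.12e-08) and -1.30 without DMSO day 6 replicate 3 (adjusted p = 3.27e-11). At day 3 PKM read 7.25, 7.31 and 6.95 with EED226 and 7.68, 7.66 and 7.48 with DMSO, and fell by 0.44 ± 0.12 (adjusted p = 0.0135). That call was lost without DMSO day 3 replicate 1 (adjusted p = 0.064), DMSO day 3 replicate 2 (0.0564) or EED226 day 3 replicate 3 (0.121). The other probe set, 213700_s_at, gave -0.51 ± 0.11 at day 6 and passed.

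LDHA, the lactate dehydrogenase subunit that predominates in muscle and many tumours, turns pyruvate into lactate and restores NAD. At day 6 its single probe set read 12.21, 12.15 and 12.39 with EED226, against 13.10, 13.11 and 13.21 with DMSO. At day 3 it read 12.88, 12.88 and 12.86 with EED226 and 13.03, 13.09 and 13.05 with DMSO. Replicates lay close together in both treatments. LDHA fell by 0.89 ± 0.06 at day 6 (adjusted p = 9.96e-13), to 53.9% of the DMSO level. The smaller difference at day 3, of -0.19 ± 0.06 (adjusted p = 0.0368), passed with all arrays and did not pass when any one of the 6 arrays of that day was left out (adjusted p between 0.063 and 0.127).

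**Figure D2:**
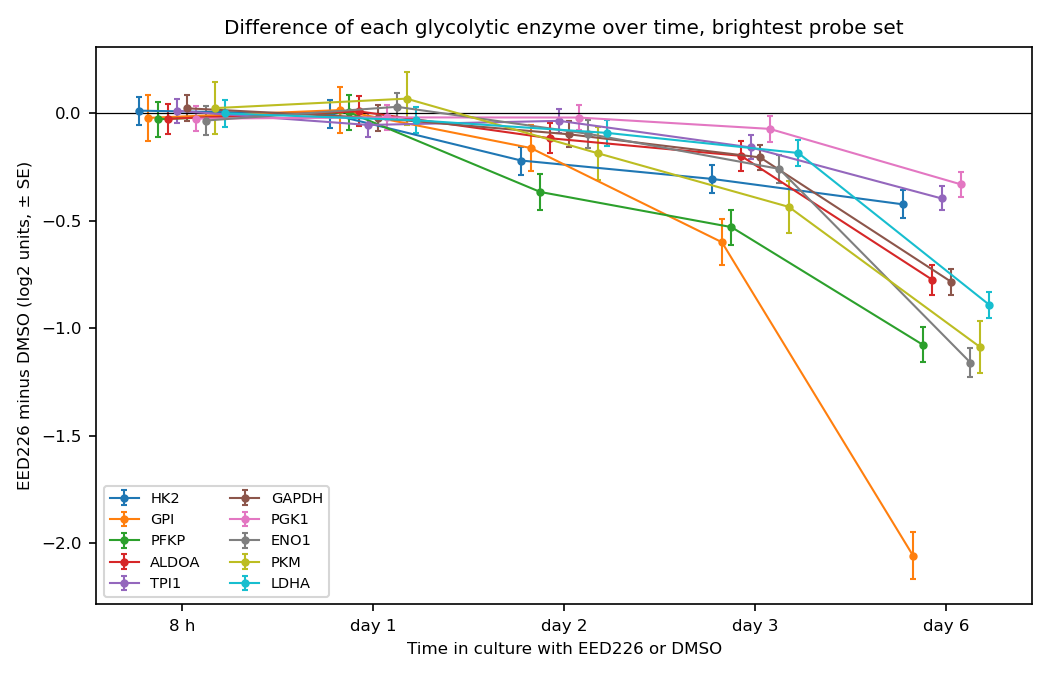
EED226 minus DMSO (log2 units, ± limma SE) for the brightest probe set of each enzyme at 8 h and at days 1, 2, 3 and 6, one colour per gene and points shifted sideways for legibility. All 10 lie near 0 up to day 1, and GPI reaches -2.06 at day 6 while PGK1 reaches -0.33.

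Whether the differences grew with time was tested as a difference of differences. Between day 1 and day 3 the difference of GPI changed by -0.61 ± 0.15 (adjusted p = 0.0181) and that of PFKP by -0.53 ± 0.12 (adjusted p = 0.00575). These were 2 of the 10 members, where 2.16% of all genes passed as lower and 3.62% as higher. The GPI call was lost without DMSO day 3 replicate 1 (adjusted p = 0.0512), EED226 day 1 replicate 2 (0.0558) or EED226 day 3 replicate 3 (0.0597). Between day 3 and day 6, 9 of the 10 passed as lower, all but HK2, where 9.37% of all genes were lower and 12.9% higher. The change was -1.46 ± 0.15 for GPI, -0.90 ± 0.09 for ENO1 and -0.71 ± 0.09 for LDHA. TPI1 and PGK1 changed least among the 9, by -0.24 ± 0.08 (adjusted p = 0.0363) and -0.26 ± 0.08 (adjusted p = 0.0319). These 2 calls were lost in fits without single arrays, with adjusted p up to 0.101 for TPI1 and 0.0919 for PGK1.

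**Figure D3:**
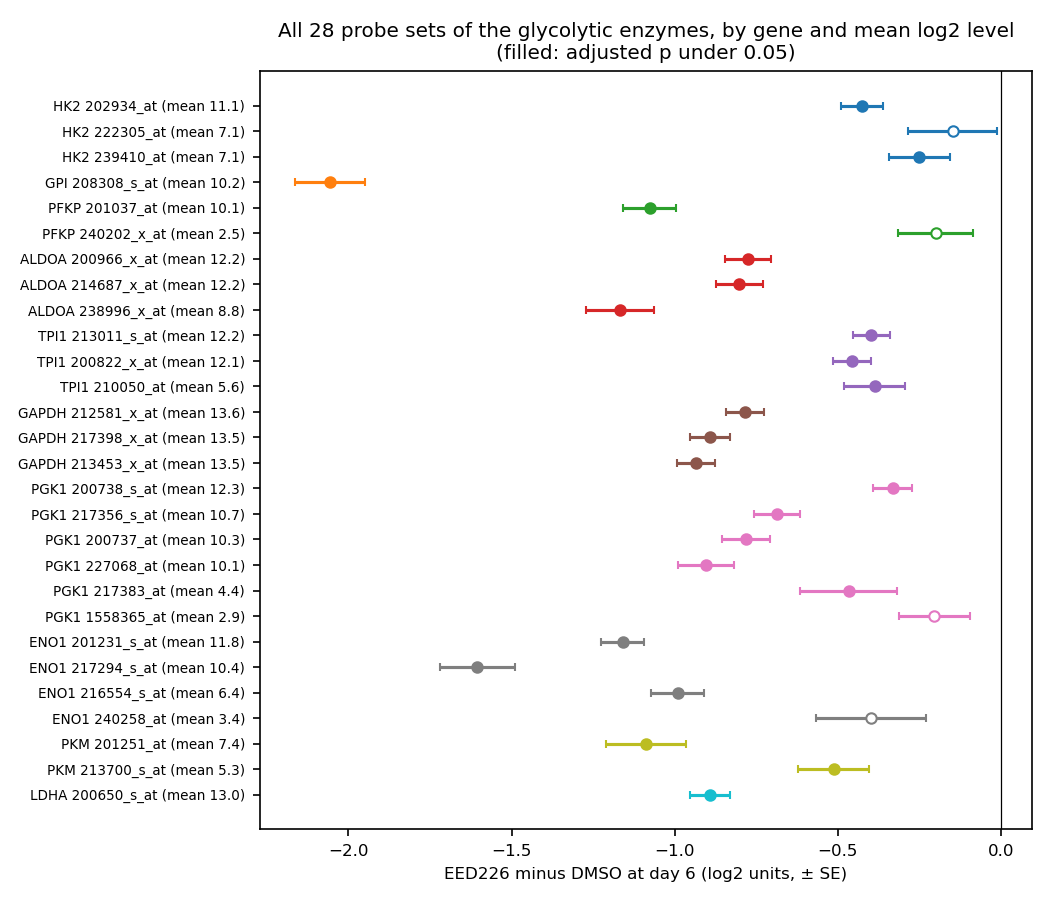
EED226 minus DMSO at day 6 (log2 units, ± limma SE) for all 28 probe sets, grouped by gene down the page in pathway order and by mean log2 level within a gene. Filled points passed the test. The 28 differences are all below 0, where the median of all probe sets is -0.08. The 4 open points belong to HK2, PFKP, PGK1 and ENO1.

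Of the 28 probe sets, 3 were dim, with a mean below the lowest array median of 4.06, and 17 carry a suffix that marks probes able to match several transcripts. Several of these enzymes have processed pseudogenes in the human genome, and signal shared with such copies was not separated here. All 28 differences were negative at days 3 and 6, and 26 of 28 at day 2. Over all probe sets the median difference was also below 0, at -0.03, -0.04 and -0.08 at days 2, 3 and 6. Probe sets of the same gene are not independent readings.

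In vehicle culture the enzymes were also set against 0 h. DMSO minus 0 h gave no member that passed at any time, over shares of all genes passing as lower of 0% at 8 h, 0.00506% at day 1, 0.0657% at day 2, 0.576% at day 3 and 0.47% at day 6. The shares passing as higher were 0% at 8 h, 0.116% at day 1, 0.491% at day 2, 1.59% at day 3 and 0.642% at day 6. At an unadjusted p under 0.05 there were 0 members at 8 h and day 1 and 1 at each later time, ALDOA, at -0.16 ± 0.07 for day 6 minus 0 h. The shares of all genes at that threshold were 2.47% at 8 h, 6.61% at day 1, 9.13% at day 2, 14.2% at day 3 and 14% at day 6, so 1 of 10 is near the background. One of the 28 probe sets passed, the PGK1 probe set 227068_at at day 3, which was -0.37 ± 0.09 against 0 h (adjusted p = 0.021). These 5 comparisons share the 0 h arrays.

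The 3' minus 5' differences of the control probe sets, an indirect reading of RNA integrity, moved with the treatment. The ACTB control probe sets, which read the 3' and 5' ends of one transcript, differed by 3.91 ± 0.35 log2 units with EED226 at day 6 and 3.14 ± 0.24 with DMSO (SD, n = 3 each), and at day 3 by 3.45 ± 0.26 with EED226 and 3.10 ± 0.06 with DMSO. For the GAPDH controls the difference was 0.64 ± 0.11 with EED226 at day 6 and 0.26 ± 0.02 with DMSO. It was 0.35 ± 0.07 and 0.24 ± 0.01 at day 3, and 0.33 ± 0.04 and 0.25 ± 0.01 at day 2. GAPDH is itself one of the enzymes that fell. With the ACTB difference as a covariate all 10 members passed at day 6, from -0.36 for PGK1 to -2.27 for GPI, and PKM gave -0.79. At day 3 PKM then did not pass (-0.30, adjusted p = 0.101) and TPI1 did (-0.18, adjusted p = 0.041). The marker counts that follow are to be read beside the 25.5% lower and 23.1% higher of all genes at day 6. Among the cell markers, the B cell list averaged 10.6 to 10.8 with EED226 at day 6 and 9.92 to 10.3 with DMSO. Of its 5 genes 3 were higher. Of the myeloid list LYZ was higher (5.50 with EED226 and 3.22 with DMSO), ITGAM and S100A8 were lower and the other 2 did not pass. Of the 6 fibroblast and epithelial markers 4 did not pass, and DCN was higher (13.21 with EED226 and 12.63 with DMSO). COL1A1 was lower (5.76 with EED226 and 6.56 with DMSO), with an SD of 0.22 with EED226 and 0.64 with DMSO. Of the 6 T and NK cell markers CD3D alone passed and was lower (8.09 with EED226 and 9.04 with DMSO). At day 6 the ACTB difference was 3.50 to 4.14 with EED226 and 2.87 to 3.29 with DMSO, without overlap. The fit with this covariate therefore cannot tell RNA integrity and treatment apart. The part of RNA integrity and of cell state in the falls of the enzymes was not tested.

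The rest of the chain was counted on a list of 18 other isozymes and steps, of which 16 had a probe set of a single symbol. At day 6 11 of the 16 fell and 1 rose, with a median of -0.39, where 25.5% of all genes fell and 23.1% rose. PGAM1, the phosphoglycerate mutase of most tissues, read 10.96, 11.13 and 11.11 with EED226 and 11.74, 11.76 and 11.82 with DMSO and fell by 0.71 ± 0.07 (adjusted p = 4.34e-10). HK1, the hexokinase present in most cells, read 9.15, 9.19 and 9.09 with EED226 and 9.73, 9.77 and 9.71 with DMSO and fell by 0.59 ± 0.06 (adjusted p = 5.51e-09). LDHB, the other main lactate dehydrogenase subunit, read 12.81, 12.89 and 12.93 with EED226 and 13.16, 13.15 and 13.13 with DMSO and fell by 0.27 ± 0.05 (adjusted p = 0.000132). None of these groups overlapped. BPGM, which makes bisphosphoglycerate in a side branch, was the one that rose, by 1.24 ± 0.18 (adjusted p = 1.36e-06). Its DMSO arrays at day 6 spread widely, with an SD of 0.64 against 0.07 with EED226.

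At the entrance and exit of the pathway the transporters had 3 lower and 2 higher of 7 measured at day 6 (median -0.14), or 4 higher when the probe sets of a gene were averaged, against the 25.5% lower and 23.1% higher of all genes. SLC2A1, the glucose carrier GLUT1, read 5.97, 5.90 and 6.03 with EED226 and 6.41, 6.43 and 6.29 with DMSO, and fell by 0.41 ± 0.08 (adjusted p = 0.00015). SLC2A3, the glucose carrier GLUT3, rose by 0.78 ± 0.15 (adjusted p = 7.98e-05). The carriers of lactate SLC16A1 and SLC16A3 had no probe set of a single symbol in the annotation used here. SLC16A7, another carrier of lactate, was measured and fell by 0.54 ± 0.17 (adjusted p = 0.0129). Of 12 measured regulators of the flux, 1 fell and 3 rose (median -0.01). TXNIP, a protein known to hold glucose carriers off the cell surface, read 12.34, 12.25 and 12.27 with EED226 at day 6 and 10.58, 10.54 and 10.46 with DMSO. It rose by 1.76 ± 0.12 (adjusted p = 5.53e-13), and no EED226 array overlapped a DMSO array. PDP1, the phosphatase that activates pyruvate dehydrogenase, rose by 0.85 ± 0.08 (adjusted p = 1.32e-09).

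Beyond pyruvate, 2 of 7 genes that carry pyruvate to acetyl-CoA fell and 2 rose (median 0.01), shares near the 25.5% lower and 23.1% higher of all genes, with which the counts of the next lists are also to be read. PDHA1, a subunit of pyruvate dehydrogenase, fell by 0.78 ± 0.07 (adjusted p = 6.37e-11), while DLAT, another subunit of that complex, rose by 0.68 ± 0.08 (adjusted p = 2.93e-08). In the TCA cycle 10 of 13 measured genes fell and none rose (median -0.48), among them IDH3A, a subunit of isocitrate dehydrogenase, at -0.72 ± 0.08 (adjusted p = 3.53e-08) and SDHA, a subunit of succinate dehydrogenase, at -0.62 ± 0.07 (adjusted p = 6.11e-08). Of 6 measured genes of the pentose phosphate pathway, which branches from glucose-6-phosphate, 3 fell and 2 rose (median -0.21). TKT, transketolase, fell by 1.57 ± 0.07 (adjusted p = 3.69e-16). PGD, phosphogluconate dehydrogenase, fell by 1.47 ± 0.12 (adjusted p = 5.50e-11), though 1 of its 2 other probe sets had the opposite sign. Among 7 genes of gluconeogenesis, 3 fell and 1 rose (median -0.29), with G6PC3 at -0.27 ± 0.07 (adjusted p = 0.00322) and the dim PCK1 at 0.54 ± 0.15 (adjusted p = 0.00524).

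**Figure D4:**
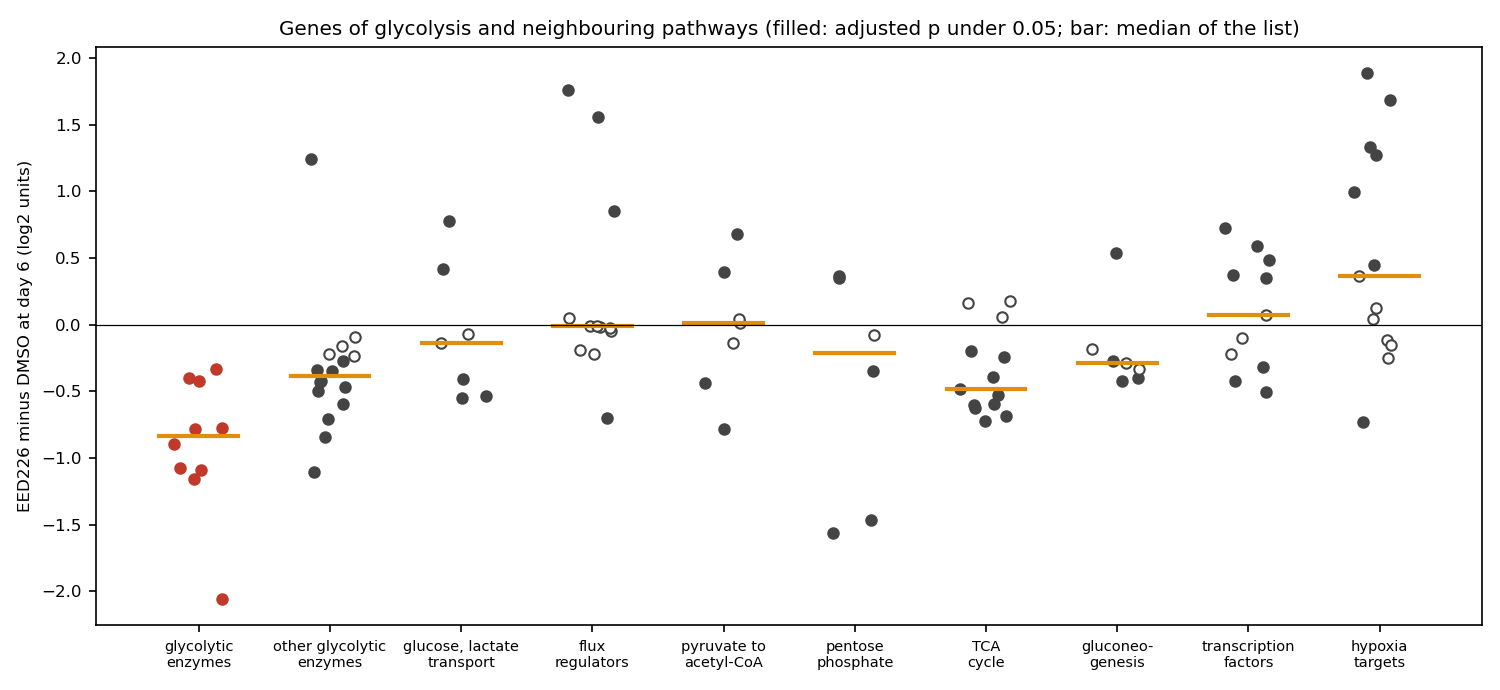
EED226 minus DMSO at day 6 (log2 units) for the 10 enzymes (red, left) and for each gene of the neighbouring lists (grey), by brightest probe set. Filled points passed the test, orange bars are list medians, and points are spread sideways at random; the enzymes have a median of -0.84, the TCA cycle list -0.48 and the hypoxia target list 0.37.

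MYC and HIF1A, which act on glycolytic promoters, moved in opposite directions at day 6. MYC read 11.25, 11.33 and 11.35 with EED226 at day 6, against 11.88, 11.82 and 11.74 with DMSO. At day 3 it read 11.81, 11.93 and 11.96 with EED226 and 11.89, 11.84 and 11.83 with DMSO, which overlap. MYC fell by 0.50 ± 0.07 at day 6 (adjusted p = 7.60e-07), and its difference at day 3 was 0.04 (adjusted p = 0.803). HIF1A, the oxygen-regulated factor, read 12.46, 12.34 and 12.43 with EED226 at day 6 and 11.80, 11.79 and 11.89 with DMSO, and rose by 0.59 ± 0.08 (adjusted p = 1.34e-06). At day 3 it read 12.14, 12.01 and 12.07 with EED226 and 11.66, 11.73 and 11.81 with DMSO, and rose by 0.34 (adjusted p = 0.00499). Its protein is controlled mainly by degradation, which arrays do not measure. MAX, the partner of MYC, rose by 0.48 ± 0.06 (adjusted p = 1.09e-07), and 1 of its 4 other probe sets had the opposite sign. USF1, another E-box factor, rose by 0.72 ± 0.11 (adjusted p = 3.16e-06). The USF1 arrays at day 6 had an SD of 0.32 with DMSO and 0.07 with EED226. Of the 11 factors on the list 3 fell and 5 rose (median 0.07), and 1 fell and 3 rose when the probe sets of a gene were averaged, where 25.5% of all genes fell and 23.1% rose.

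Hypoxia targets outside glycolysis had 1 lower and 6 higher of 13 measured at day 6 (median 0.37), with 2 lower when probe sets were averaged, against 25.5% lower and 23.1% higher of all genes. MXI1, an antagonist of MYC, rose by 1.89 ± 0.13 (adjusted p = 5.99e-13), and BNIP3L, a mitophagy receptor, rose by 1.33 ± 0.08 (adjusted p = 2.03e-13). VEGFA, the angiogenic factor, read 5.80, 6.06 and 6.39 with EED226 at day 6 and 5.50, 5.83 and 5.81 with DMSO, which overlap at the edge. Its difference of 0.37 ± 0.37 did not pass (adjusted p = 0.451), and its 3 other probe sets had the opposite sign. At day 3 the DMSO arrays of VEGFA read 5.49, 5.51 and 8.07, so that 1 array set that group apart.

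**Figure D5:**
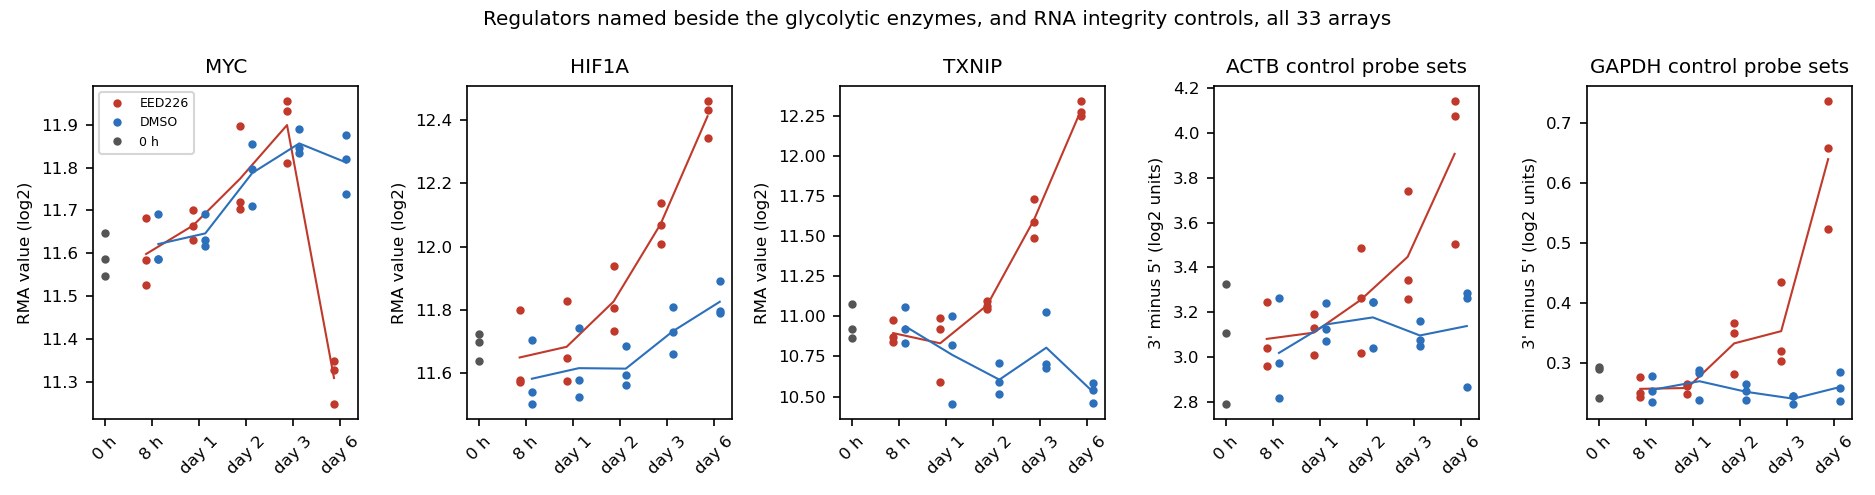
RMA values (log2) of MYC, HIF1A and TXNIP, and the 3' minus 5' difference (log2 units) of the ACTB and GAPDH control probe sets, on all 33 arrays, with EED226 in red, DMSO in blue and 0 h in grey. Points are arrays and lines join group means; MYC leaves the DMSO arrays at day 6, the EED226 arrays of HIF1A and TXNIP lie above the DMSO arrays from day 2 on, and those of both control differences at days 3 and 6.

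To place the time course of the enzymes, the standardized group means of the 10 were averaged and correlated with each other gene over the 11 groups, as a description. The enzymes themselves had r between 0.80 for HK2 and 0.99 for LDHA. Each of them is part of the mean it was correlated with, which raises its r. The 5 genes most like the profile were WDR12, MSH6, CDC6, TIPIN and SNRPD1, with r of 0.998 to 0.999. In all, 1286 of 19765 genes had r of at least 0.95. The 11 points share the cell line and the normalization. WDR12 acts in ribosome assembly, MSH6 in mismatch repair, CDC6 in licensing of replication origins, TIPIN at replication forks and SNRPD1 in splicing. At day 6 their differences were -1.33 for WDR12, -1.53 for MSH6, -2.48 for CDC6, -1.73 for TIPIN and -0.99 for SNRPD1. The 5 were picked by likeness to a profile that falls with EED226 at day 6, so these falls follow from the choice.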

How the data were processed

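Per the labels' protocols, Karpas422 RNA was isolated with TRIZOL and a 3' IVT kit made the labelled target. The deposited log2 values, 1 per probe set and array, were made by the authors with RMA, per the submitters' processing notes; the RMA version is not given in the sources used here. RMA subtracts background, applies quantile normalization and combines the probes of a set, so levels are relative within an array.

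Groups follow the sample titles. Contrasts between groups came from limma 3.58.1 under R 4.3.3 (lmFit, then eBayes; a mean for each of 11 groups, 33 arrays, 22 residual degrees of freedom, two-sided), with Benjamini-Hochberg adjustment over 54613 probe sets within a comparison, after 62 Affymetrix controls were left out. In the platform annotation 41091 probe sets had 1 symbol and 1801 had several, which named no gene. The procedure was tested on simulated data. The number of arrays limits the precision.

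The members and the lists of neighbouring genes were chosen with earlier results of these data known. Named genes are all members, and for each other list the 2 genes with the smallest p and the 1 with the largest difference at day 6, with MYC, HIF1A, HK1, LDHB, PGAM1, SLC2A1 and VEGFA always, and the 5 genes most like the mean member profile. SLC16A7 was named besides, as a carrier of lactate that was measured. Lists were counted and not tested as sets.

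The design text calls the replicates biological. Deviations from group means of same-numbered EED226 and DMSO arrays correlated at 0.167 to 0.332 at 8 h, 0.175 to 0.373 at day 1 and 0.141 to 0.194 at day 2, all over 0.1, so numbers were taken to pair arrays at these times. At day 3 (0.0126 to 0.264) and day 6 (0.0683 to 0.165) they were not.

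Alternatives were a fit to only the arrays compared, trended robust eBayes, array weights, median centring, a second quantile normalization, probe sets above the median level, adjustment over genes only, an average over each gene's probe sets, the brightest probe set in 0 h and DMSO arrays, an ACTB 3' to 5' covariate, a replicate block, and each array left out.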

Additional observations from a re-analysis of the deposited data

Results flagged for a closer look

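The difference between EED226 and DMSO itself changed with time for several enzymes, by the limma test of a difference of differences. From day 1 to day 3 it changed by -0.61 log2 units for GPI and -0.53 for PFKP (adjusted p = 0.0181 and 0.00575). From day 3 to day 6 it changed by -1.46 for GPI, -0.55 for PFKP, -0.58 for ALDOA, -0.24 for TPI1 and -0.58 for GAPDH. Over the same interval the changes were -0.26 for PGK1, -0.90 for ENO1, -0.65 for PKM and -0.71 for LDHA. Adjusted p for these 9 lay between 6.98e-08 and 0.0363. The later interval spans more days than the earlier one. Groups of 3 arrays were not tested for outlying arrays.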

How the results depend on the processing

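No difference of an enzyme that passed changed sign under any alternative run. Of all 2250 alternative values, those of differences that passed included, 81 changed sign. They belonged to 35 differences that did not pass, with adjusted p of at least 0.45, such as PFKP at day 1 (-0.04 to 0.07 without single arrays). The median of the 10 genes also changed sign, at 8 h (-0.03 to 0.01) and day 1 (-0.03 to 0.02). At day 6 10 of 10 enzymes passed as lower in each fit, other than 9 of 10 with only the arrays compared, where PGK1 had an adjusted p of 0.0533. At day 2 the count of lower enzymes was 2, and it was 0 with only the arrays compared and with probe sets averaged per gene, 1 with array medians centred, 1 with the ACTB covariate and 1 with the replicate block, and 1 to 2 without single arrays. At day 3 the count was 7, with 4 from only the arrays compared and 4 to 9 without single arrays, the lowest without EED226 day 3 replicate 3 and the highest without DMSO day 6 replicate 3. From day 1 to day 3 the count was 2, and it was 5 with trended robust eBayes, 5 with array weights, 4 with quantile normalization again, 4 above the median level, 4 adjusted over genes only and 1 to 4 without single arrays. Beside day 2, the block ended the calls of LDHA at day 3 (adjusted p = 0.0543) and of TPI1 between day 3 and day 6 (0.0718), at times where numbers did not pair arrays, and no other call of an enzyme. The causes of these changes were not tested, beyond the fewer arrays or other set of probe sets that a fit used. With 3 arrays a group, differences of about 0.2 log2 units lay near the limit of the test, as for ALDOA and TPI1 at day 3 (adjusted p = 0.0556 and 0.0539). With array medians centred, 5030 genes were lower and 4537 higher at day 6, and 5041 and 4568 without centring.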
